A study of Mus musculus with 4 samples.

Results

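Cytotoxic lymphocytes kill by releasing granules. Perforin opens the way into the target cell, granzymes are serine proteases that enter with it and cleave target proteins, and serglycin is the proteoglycan core on which both are stored. Fas ligand is a separate route, a membrane protein that engages the death receptor Fas on the target. Invariant natural killer T (iNKT) cells are T cells with a semi-invariant receptor for lipids on CD1d, and their NKT1 subset, directed by T-bet, shares much of this equipment with natural killer cells. The 10 genes described here are the granzymes Gzma, Gzmb, Gzmc, Gzmk and Gzmm, the perforin gene Prf1, the granule genes Nkg7, Ctsw and Srgn, and Fasl. They were taken by name from the 53715 genes of the count table. All 10 had a row, and 9 had enough reads to be tested. Gzmk did not.

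RNA was sequenced from thymic iNKT cells of C57BL/6 mice aged 6 to 8 weeks, sorted alive by TCRβ and binding to a tetramer of CD1d. There were 2 libraries of genotype WT and 2 of genotype Mettl3fl/flCD4-cre, called the Mettl3 knockout here. In the knockout a floxed Mettl3 gene is cut by Cre recombinase under control of Cd4, which is active from the CD4+CD8+ thymocyte stage onward in all αβ T cells, so the deletion is not restricted to iNKT cells; whether the WT mice carried Cre or a floxed allele is not given. METTL3 is the enzyme that writes the m6A mark on mRNA. No label says whether the libraries of a genotype came from separate mice, so p-values measure the spread between libraries, which may be technical. Levels are CPM, the read counts of a gene relative to library size after TMM scaling. Log2 fold changes are knockout over WT with their standard error (SE), from edgeR's quasi-likelihood test on all genes, and called genes are those with a p under 0.05 after Benjamini-Hochberg adjustment.

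The libraries held 24374587 to 28316016 counts. Mettl3 itself was at 92.2 and 124 CPM in WT and at 78.0 and 91.3 CPM in the knockout (log2 fold change -0.35, edgeR adjusted p = 0.357). Reads from exons outside the deleted part still count, so this does not check the deletion. Defining markers of T cells were present in every library, with Cd3e at 434 and 514 CPM in WT and 570.1 and 485 CPM in the knockout; of 10 such genes Cd5 rose and Trac fell. Of all 14185 tested genes, 214 (1.51%) were called lower in the knockout and 154 (1.09%) higher.

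The 5 granzyme genes belong to one serine protease family. The bases that encode the catalytic serine show this, and are printed 5′ to 3′ from GENCODE M21 transcripts with the serine codon in capitals. Each stretch is 27 bases long.
Gzma: tgcaatggggatTCTggcagccctctg
Gzmb: tttcggggggatTCTggaggcccgctt
Gzmc: tttgaggaggatTCTggaggcccgctt
Gzmk: tgcaagggtgacTCTggtggccctttg
Gzmm: tgcaagggtgacTCTggagggcccctg
Gzmb and Gzmc, neighbours on chromosome 14, were the most alike, with 76.7% identical bases over the aligned coding sequence, against 57.0% to 62.3% for the other pairs. Stretches of 50 bases nonetheless told most of them apart, in a search of exact matches among annotated transcripts only. Of the stretches of 50 bases along the longest transcript of each gene, none in 9 of the 10 genes occurred in a transcript of another gene. In Gzmc 4.14% did, shared with Gzmd, Gzme and Gzmg, whose own counts were 0. No member shared exon bases with another gene except Ctsw, where 9 bases (0.477%) overlapped Fibp on the opposite strand.

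Of the 9 tested members, 6 fell in the Mettl3 knockout and 0 rose, against 1.51% of all tested genes called lower. They were Gzma, Gzmb, Prf1, Nkg7, Ctsw and Fasl, and their falls ran from 1.74-fold for Ctsw to 7.94-fold for Gzma. Gzmc, Srgn and Gzmm did not pass. The median log2 fold change of the 9 was -1.89, beside 0.02 over all tested genes. In 8 of the 9 both knockout libraries lay below both WT libraries, as they did in 24.9% of all tested genes, and in 0 both lay above, against 25.3%. The members together held 0.223% (95% exact Clopper-Pearson interval 0.221% to 0.224%) and 0.292% (0.290% to 0.294%) of all reads assigned to genes in WT replicates 1 and 2. In knockout replicates 1 and 2 they held 0.122% (0.121% to 0.123%) and 0.121% (0.119% to 0.122%). These intervals cover counting error only, as reads that carry no molecular identifier are not independent molecules.

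**Figure D1:**
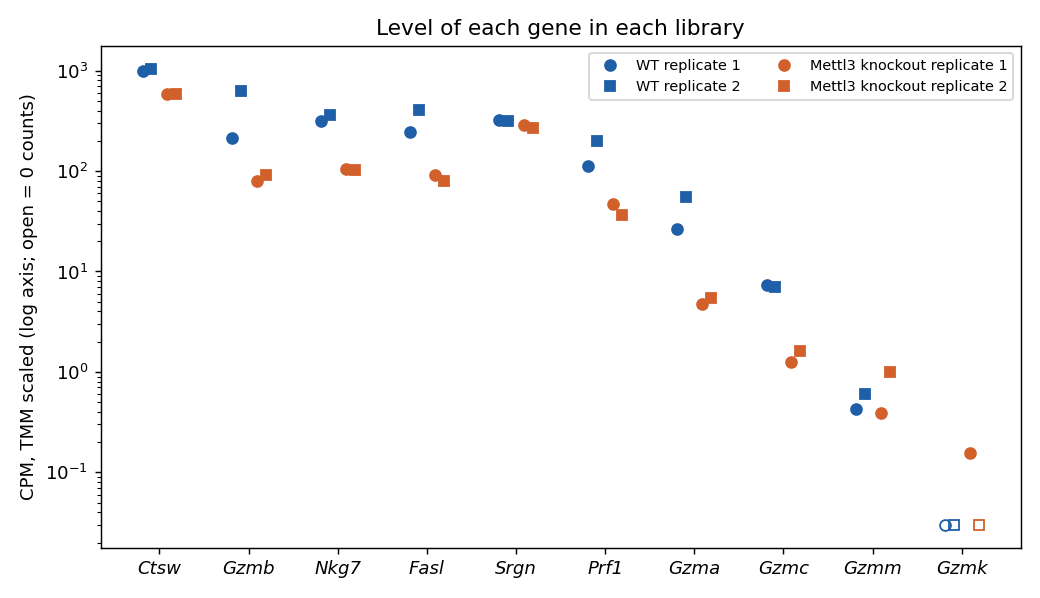
Level of each gene (CPM, log axis) in the 2 WT libraries (blue) and the 2 Mettl3 knockout libraries (orange), circles for replicate 1 and squares for replicate 2; open symbols mark libraries with 0 counts, drawn at the foot of the axis. Both knockout points lie below both WT points for every gene but Gzmm and Gzmk, and the WT points of Gzmb lie furthest apart, at 214 and 622 CPM.

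Gzmb encodes granzyme B, which cleaves caspases and their substrates in the target cell (ENSMUSG00000015437.5; GRCm38 chromosome 14, 56258838 to 56262260, minus strand). It was at 214 and 622 CPM in WT replicates 1 and 2 and at 79.5 and 90.6 CPM in the knockout replicates. Both knockout libraries were low, but the WT libraries stood 2.90-fold apart. The log2 fold change was -2.29 (SE 0.45; edgeR adjusted p = 0.0487), close to the threshold. Leaving out WT replicate 2 gave -1.34 and leaving out WT replicate 1 gave -2.88, and Gzmb passed in both fits (adjusted p = 0.0367 and 0.00264). It did not pass without knockout replicate 1 (0.409) or knockout replicate 2 (0.369). It also missed with limma voom (adjusted p = 0.111) and with no filter on low counts (0.0658). The same was true with at least 5 CPM required in 2 libraries (0.139) and with DESeq2 size factors (0.0511). The call is thus a narrow one. The direction held in all 12 alternatives, but these reuse libraries in which both knockout values lie below both WT values.

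Gzma encodes granzyme A, a trypsin-like granzyme (ENSMUSG00000023132.8; GRCm38 chromosome 13, 113093825 to 113100981, minus strand), and fell furthest of the members. It was at 26.3 and 55.1 CPM in WT and at 4.74 and 5.41 CPM in the knockout. Every knockout library lay well under both WT libraries, and WT replicate 2 was again the higher. The log2 fold change was -2.99 (SE 0.50; edgeR adjusted p = 0.0311). Without WT replicate 2 it was -2.38 and did not pass (adjusted p = 0.0799), nor did it without knockout replicate 1 (0.148) or 2 (0.143) or with limma voom (0.0629).

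The other granzymes were at low levels. Gzmc, which encodes granzyme C (ENSMUSG00000079186.3; GRCm38 chromosome 14, 56231441 to 56234656, minus strand), was at 7.32 and 7.00 CPM in WT and 1.24 and 1.60 CPM in the knockout, with 32 and 40 reads in the knockout libraries. The groups did not overlap and the WT libraries were close. Its log2 fold change of -2.33 (SE 0.56, 95% interval -3.64 to -1.02) did not pass with edgeR (adjusted p = 0.0788), and passed with DESeq2 (adjusted p = 0.0123). Gzmm, which encodes granzyme M (ENSMUSG00000054206.2; GRCm38 chromosome 10, 79689020 to 79695261, plus strand), had 12 and 15 reads in WT and 10 and 25 in the knockout, or 0.426 and 0.597 against 0.388 and 1.002 CPM. The genotypes overlapped, and the 95% interval of its log2 fold change ran from -1.73 to 2.62, so a difference was not detectable at this depth. Gzmk, which encodes granzyme K, the trypsin-like relative of granzyme A (ENSMUSG00000042385.14; GRCm38 chromosome 13, 113171608 to 113225908, minus strand), had 4 reads in knockout replicate 1 and 0 in the other libraries. Gzmd, Gzme, Gzmf, Gzmg and Gzmn, the remaining genes of the chromosome 14 cluster, had no read in any library, which allows up to 0.107 to 0.120 CPM at 3 counts per library.

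Granzyme B made up most of the granzyme transcript in both genotypes. Corrected for exon length, Gzmb held 81.1% and 87.3% of the counts of all 10 granzyme genes in WT and 89.5% and 88.9% in the knockout. Gzma held 14.2% and 11.0% in WT and 7.61% and 7.58% in the knockout, so that both knockout libraries gave it a smaller part. An exact two-sided permutation test of Gzma's part over the 4 libraries gave p = 0.333, the smallest value that 2 against 2 libraries allow. Without the length correction Gzma took 10.6% (95% exact Clopper-Pearson interval 9.90% to 11.4%) and 8.05% (7.65% to 8.47%) of granzyme reads in WT. In the knockout it took 5.50% (4.59% to 6.54%) and 5.49% (4.62% to 6.46%). These intervals cover counting error only and not the spread between libraries. The 2 WT intervals did not overlap each other.

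Prf1, the perforin gene (ENSMUSG00000037202.6; GRCm38 chromosome 10, 61297833 to 61304680, plus strand), was at 113 and 201 CPM in WT and at 47.3 and 36.8 CPM in the knockout. The genotypes did not overlap. The log2 fold change was -1.89 (SE 0.30; edgeR adjusted p = 0.0273). Without WT replicate 2 it was -1.42 and did not pass (adjusted p = 0.0718), nor did it without knockout replicate 1 (0.107) or 2 (0.151).

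The granule genes Nkg7, Ctsw and Srgn differed from each other in how far they moved. Nkg7 encodes a granule membrane protein needed for efficient degranulation (ENSMUSG00000004612.9; GRCm38 chromosome 7, 43437073 to 43438249, plus strand). It was at 313 and 358 CPM in WT and at 105 and 102 CPM in the knockout. Replicates lay close together in both genotypes, and its log2 fold change was -1.69 (SE 0.13; edgeR adjusted p = 0.00214), at rank 13 of all tested genes by p. Nkg7 was the one member that passed whichever library was left out. Ctsw encodes cathepsin W (ENSMUSG00000024910.4), a cysteine protease of cytotoxic lymphocytes. It was at 1003 and 1045 CPM in WT and 583 and 590.5 CPM in the knockout, again with tight replicates, and fell by 0.80 on the log2 scale (SE 0.08; edgeR adjusted p = 0.00558). It did not pass without knockout replicate 1 (adjusted p = 0.0726) or 2 (0.0713), although its log2 fold change stayed between -0.84 and -0.75 in every alternative. Srgn, the serglycin gene (ENSMUSG00000020077.14; GRCm38 chromosome 10, 62493833 to 62527451, minus strand), is expressed in many blood cell types. It was at 322 and 317 CPM in WT and at 290.4 and 271 CPM in the knockout. The knockout libraries were slightly lower, by 0.19 on the log2 scale (95% interval -0.43 to 0.06; edgeR adjusted p = 0.368), and Srgn was not called. The 95% interval of Srgn lies apart from those of Ctsw (-0.99 to -0.61) and Nkg7 (-1.98 to -1.40); the differences between genes were not tested.

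Fasl encodes Fas ligand (ENSMUSG00000000817.10; GRCm38 chromosome 1, 161780689 to 161788495, minus strand). It was at 242 and 406 CPM in WT and at 91.6 and 80.4 CPM in the knockout. Both knockout libraries were low, and WT replicate 2 was higher than WT replicate 1. The log2 fold change was -1.91 (SE 0.25; edgeR adjusted p = 0.0124), -1.495 without WT replicate 2 (adjusted p = 0.0285) and -2.25 without WT replicate 1 (0.00655). It did not pass without knockout replicate 1 (adjusted p = 0.0750) or 2 (0.0996).

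**Figure D2:**
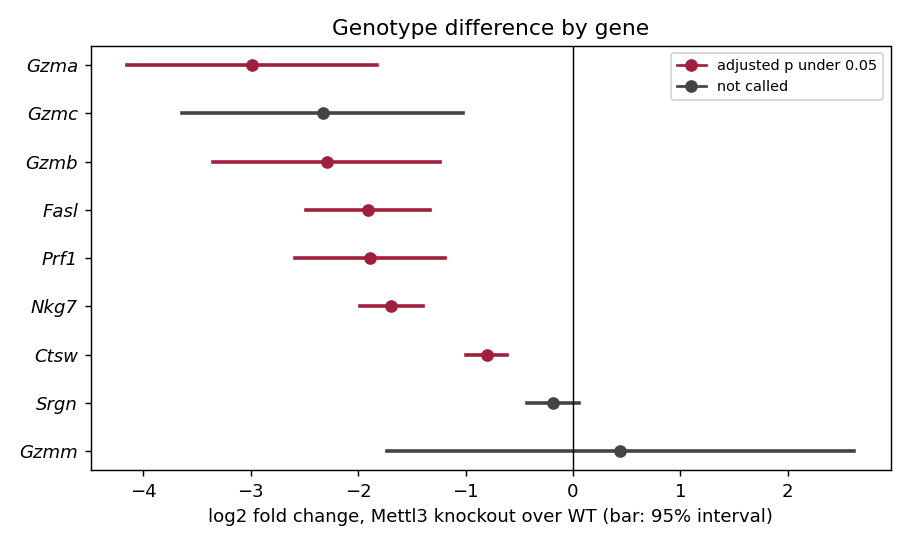
Log2 fold change of the 9 tested members, Mettl3 knockout over WT, with the 95% interval from edgeR as a bar; red marks an adjusted p under 0.05. The 6 called genes lie left of 0, and the interval of Gzmm runs from -1.73 to 2.62.

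The count of called members depended on single libraries. It was 6 without WT replicate 1 (0.847% of all tested genes were called lower in that fit) and 4 without WT replicate 2 (0.370%). It was 1 without knockout replicate 1 (0.168%) and 1 without knockout replicate 2 (0.205%), and in these fits a genotype left with 1 library takes its spread from the other genotype. Under other scalings, tests and filters the count was 6 with total-count scaling (1.39%) and without robust estimation of the spread (1.47%), and 5 with DESeq2 size factors (1.43%). It was 5 with no filter on low counts (0.707%), 5 of 8 members with at least 5 CPM in 2 libraries (3.99%), 4 with limma voom (1.25%) and 7 with DESeq2 (4.73%). WT replicate 2 was the higher WT library for Gzmb, Gzma, Prf1 and Fasl. Its ratio to WT replicate 1, with 0.5 CPM added to each level, was 2.90 for Gzmb, 2.07 for Gzma, 1.78 for Prf1 and 1.67 for Fasl. These ratios stood above those of 99.3%, 98.1%, 96.4% and 95.4% of the 9654 genes at a mean of 5 CPM or more, among which 5.14% were at least 2-fold apart in either direction. The ratio was 1.14 for Nkg7, 1.04 for Ctsw, 0.98 for Srgn and 0.96 for Gzmc. The median over 23 other NKT1 markers was 1.30, and over the genes at 5 CPM or more it was 1.005. Between the knockout libraries the ratio of replicate 2 to replicate 1 was 0.78 to 1.21 for these 8 genes. What set the WT libraries apart was not tested.

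**Figure D3:**
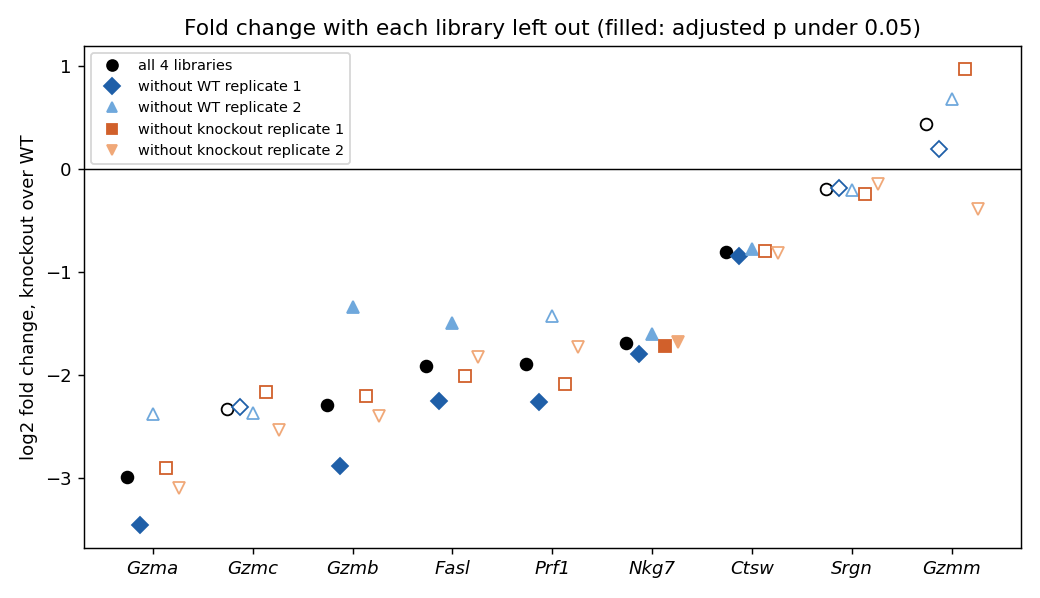
Log2 fold change of the 9 tested members with all 4 libraries and with each library left out in turn; filled symbols passed at an adjusted p under 0.05. Gzmb, Gzma, Prf1 and Fasl move with the WT library left out, between -1.34 and -2.88 for Gzmb, while Nkg7 stays filled throughout and Gzmm changes sign without knockout replicate 2.

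Per kilobase of exon, the scale on which genes can be set beside each other, Ctsw was the most abundant member in both genotypes, at 532 and 554 CPM per kilobase in WT and 309 and 313 in the knockout. In WT it was followed by Nkg7, Gzmb, Fasl, Srgn, Prf1, Gzma, Gzmc and Gzmm, with Gzmk at 0. Nkg7 and Gzmb, Gzmb and Fasl, Fasl and Srgn, and Prf1 and Gzma had overlapping library values in WT, so their order does not hold beyond the spread. In the knockout Srgn came second, at 132 and 123 CPM per kilobase, above Nkg7 at 115 and 112. The others kept the WT order there, and no neighbours in the order overlapped.

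The promoters of 4 called genes are shown with motifs of T-box, Runx and AP-1 factors. Whether any such factor acts on these genes was not tested. The sequences are RefSeq windows of GRCm38.p6, from 250 bases before to 50 bases after the annotated start, 5′ to 3′ on the gene's strand. Capitals mark the motifs searched on both strands: the T-box motif AGGTGTGA and its shorter core GGTGTGA, which lies within it, the Runx motif TGTGGT and the AP-1 motif TGACTCA.
Nkg7, chr7:43436888-43437187, plus strand: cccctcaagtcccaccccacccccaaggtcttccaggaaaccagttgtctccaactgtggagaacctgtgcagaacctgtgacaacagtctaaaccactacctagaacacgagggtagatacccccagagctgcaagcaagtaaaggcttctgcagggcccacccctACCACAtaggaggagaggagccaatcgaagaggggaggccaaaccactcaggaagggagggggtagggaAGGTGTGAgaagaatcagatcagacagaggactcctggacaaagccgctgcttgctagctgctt
Gzmb, chr14:56262285-56262584, minus strand: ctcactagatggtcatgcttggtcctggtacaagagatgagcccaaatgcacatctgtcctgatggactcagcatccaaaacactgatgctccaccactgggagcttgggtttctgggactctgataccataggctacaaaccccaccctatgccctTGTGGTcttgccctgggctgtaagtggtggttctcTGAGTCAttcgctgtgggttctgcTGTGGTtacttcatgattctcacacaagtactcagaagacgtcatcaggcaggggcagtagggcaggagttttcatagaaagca
Prf1, chr10:61297586-61297885, plus strand: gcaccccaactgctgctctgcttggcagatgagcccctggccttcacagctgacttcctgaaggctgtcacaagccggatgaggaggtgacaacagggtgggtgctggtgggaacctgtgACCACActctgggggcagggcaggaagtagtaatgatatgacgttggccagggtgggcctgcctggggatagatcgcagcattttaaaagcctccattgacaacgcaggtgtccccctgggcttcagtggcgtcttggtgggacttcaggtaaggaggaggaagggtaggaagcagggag
Gzma, chr13:113100932-113101231, minus strand: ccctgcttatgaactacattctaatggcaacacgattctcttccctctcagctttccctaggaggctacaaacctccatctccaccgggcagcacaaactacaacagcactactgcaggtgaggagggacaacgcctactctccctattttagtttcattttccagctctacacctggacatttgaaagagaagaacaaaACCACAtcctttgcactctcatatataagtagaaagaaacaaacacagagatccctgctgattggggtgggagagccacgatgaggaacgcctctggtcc
A window was given for 9 of the 10 genes, Ctsw being the exception, and for 11 starts in all. Nkg7 held the T-box motif 14 bases before its RefSeq start and a Runx motif 83 bases before it. The GENCODE start of Nkg7, 43437073, lies upstream of the T-box motif, so that motif is inside the GENCODE gene. Gzmb held 2 Runx motifs, 93 and 34 bases before its RefSeq start, with an AP-1 motif between them. A Runx motif stood in 7 of the 11 member windows (63.6%) and in 16.8% of all 32851 windows of that length. These 7 were the called Gzma, Gzmb, Prf1 and Nkg7, and Gzmc, Gzmm and Srgn, which were not called. The short T-box core stood in 3 of 11 and in 3.98% of all windows. These 3 were Nkg7, Gzmk and 1 of the Gzmm starts, and only Nkg7 was called. The AP-1 motif stood in 1 of 11 and in 5.20% of all windows. The Fasl window held none of the 4. A match of letters is not a bound site, and no binding was measured.

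METTL3 acts on a short consensus, of which GGACT is a common form. Along the longest annotated transcript, Prf1 held 7 GGACT in 2474 bases, or 2.83 per kilobase, more than 97.0% of the tested genes. Gzmb held 3 (2.09 per kilobase), Gzma 2 (2.01) and Ctsw 3 (1.92, in a transcript with a retained intron). Nkg7, Gzmc and Gzmm held 1 each. Fasl, Srgn and Gzmk held none. The median was 1.13 per kilobase over the members and 1.01 over the tested genes. No m6A was measured in these libraries.

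Genes next to the members were taken as the 3 nearest protein-coding genes on each side, other members left out. Of 48 such genes 28 were tested, and 1 rose and 0 fell, beside 1.09% and 1.51% of all tested genes, with a median log2 fold change of -0.05. At an unadjusted p under 0.05 in edgeR 2 were higher and 2 lower, and DESeq2 called 2 higher and 0 lower. Both knockout libraries lay below both WT libraries in 7 of the 28 (24.9% of all tested genes) and above them in 6 (25.3%). Of the lower ones Tbata, 108992 bases from Prf1, was at 4.05 and 7.08 CPM in WT and 0.582 and 1.60 CPM in the knockout. It did not pass (log2 fold change -2.33, edgeR adjusted p = 0.135), and leaving out knockout replicate 2 moved it to -3.23. The gene that rose lies 362279 bases from Fasl in the same family: Tnfsf4, which encodes OX40 ligand, had a log2 fold change of 2.46 (edgeR adjusted p = 0.0421), from a mean of 5.96 CPM in WT to 31.9 CPM in the knockout. Its call was lost in every fit that left out a library, with a log2 fold change of 1.74 without WT replicate 1 and 3.70 without WT replicate 2. Fibp, which overlaps Ctsw, had a log2 fold change of 0.12 (edgeR adjusted p = 0.847).

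Other genes of the granule and death receptor pathways were compared in the same fit. There 1.51% of all tested genes were called lower and 1.09% higher. With DESeq2 671 of all 14185 tested genes were lower and 662 higher. Of 16 tested exocytosis genes, which dock and fuse granules at the membrane, 0 rose and 0 fell with edgeR, with a median log2 fold change of -0.03. The smallest p were those of the membrane fusion gene Snap23 (log2 fold change -0.78, edgeR adjusted p = 0.0556), the lysosome-trafficking gene Lyst (-0.93, 0.101) and Sytl3, a Rab27 effector gene (-1.92, 0.113). The value of Sytl3 rested on single libraries, at -1.14 without WT replicate 2 and -2.47 without WT replicate 1. At an unadjusted p under 0.05 in edgeR 4 of the 16 genes passed, and DESeq2 called 3 of them at its adjusted threshold, Snap23, Lyst and Sytl3, all lower. Of 15 genes for activation, sorting and inhibition of granule proteases, 2 rose and 1 fell (median -0.07), while 8 had an unadjusted p under 0.05 in edgeR. DESeq2 called 7 of the 15, 3 higher and 4 lower. Serpinb1a, a protease inhibitor gene that is also an NKT17 marker, fell by 2.51 on the log2 scale (edgeR adjusted p = 0.00651). Igf2r, a mannose-6-phosphate receptor that sorts lysosomal enzymes, rose from 36.2 and 43.4 CPM to 88.3 and 82.3 CPM (edgeR adjusted p = 0.0280). Ctsh, the cathepsin H gene, rose from 0.0711 and 0.318 CPM to 4.85 and 4.65 CPM (edgeR adjusted p = 0.0351). Without any 1 of the libraries Igf2r and Ctsh did not pass, and the log2 fold change of Ctsh, 4.63 with all libraries, moved to 3.87 when WT replicate 1 was left out and to 5.97 when WT replicate 2 was. Serpinb1a did not pass without knockout replicate 2 (adjusted p = 0.0563). Ctsc, whose product activates granzymes, was at 682 and 837 CPM in WT and 843 and 760.3 CPM in the knockout. Serpinb9, the inhibitor of granzyme B, was at 188 and 265 CPM in WT and 128 and 116 CPM in the knockout, and did not pass (edgeR adjusted p = 0.0524). It was called lower with DESeq2, with at least 5 CPM in 2 libraries (edgeR adjusted p = 0.0204) and without WT replicate 1 (0.0344). Of 14 genes of death receptor signalling, 1 fell and 0 rose (median 0.25). It was Tnfsf10, which encodes the death ligand TRAIL, with a log2 fold change of -1.26 (edgeR adjusted p = 0.0311), and its call was lost in each of the 4 fits without a library (adjusted p = 0.102 to 0.181). Ltb, for lymphotoxin β, and Bid, for a protein cut by granzyme B and caspase-8, had log2 fold changes of 0.32 and -0.64 and did not pass; Ltb was called higher with DESeq2. Fas, the receptor of Fas ligand, was at 29.1 and 34.9 CPM in WT and 49.8 and 46.3 CPM in the knockout, with an edgeR adjusted p of 0.166.

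Regulators of the programme moved both ways. The 20 tested transcription factor genes were listed whether they promote or oppose the programme, so their median carries no direction. Of them 2 rose and 3 fell (median 0.21), beside 1.09% and 1.51% of all tested genes. At an unadjusted p under 0.05 in edgeR 15 of the 20 passed. DESeq2 called 5 higher and 7 lower, beside 662 and 671 of all 14185 tested genes. Stat4, which carries the interleukin-12 signal, was at 74.5 and 121 CPM in WT and 17.7 and 25.1 CPM in the knockout. Its log2 fold change was -2.19 (SE 0.31; edgeR adjusted p = 0.0168). Bhlhe40 fell by 1.62 and Tbx21, the T-bet gene, by 0.98 in log2 terms (edgeR adjusted p = 0.0387 and 0.0202). Id3, an inhibitor of E proteins, and Lef1, a factor of immature T cells, rose by 1.07 and 0.75 (edgeR adjusted p = 0.00965 and 0.0112). Runx3, Zfp683 and Prdm1 had log2 fold changes of -0.81, -1.14 and -1.39 and did not pass with edgeR; each was called lower with DESeq2 and with at least 5 CPM in 2 libraries. Eomes, a T-box factor of natural killer cells, had no read in WT and 12 and 22 in the knockout. Of 10 receptor genes for cytokines that induce granule genes, 2 fell and 1 rose (median -0.36), against 4 and 1 with DESeq2: Il12rb2, a chain of the interleukin-12 receptor, fell by 1.91 and Il18rap by 1.12 on the log2 scale, and Il2ra rose by 1.94 (edgeR adjusted p = 0.0202, 0.00558 and 0.0365). Il2rb, the shared receptor chain for interleukin-2 and interleukin-15, was at 1744 and 2348 CPM in WT and 1571 and 1570.1 CPM in the knockout, with an edgeR adjusted p of 0.165, and it was called lower without WT replicate 1 (0.0182). Without knockout replicate 1 or 2 none of these 8 called genes passed. Without WT replicate 2 only Il18rap did, and without WT replicate 1 all but Bhlhe40 and Il2ra did; the log2 fold change of Il2ra was then 1.45, and 2.59 without WT replicate 2.

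**Figure D4:**
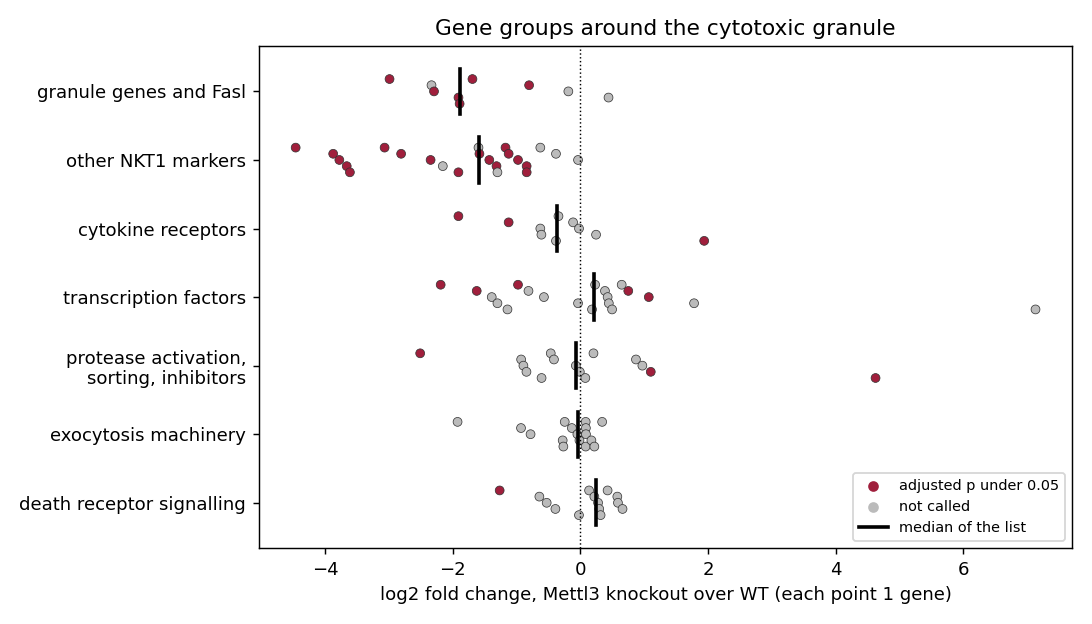
Log2 fold change (knockout over WT) of each tested gene in 7 groups, with the median as a black bar and genes past an adjusted p of 0.05 in red. The members and the other NKT1 markers lie mostly left of 0, with medians of -1.89 and -1.58, and the exocytosis genes lie around 0; the point furthest right is Eomes, which had no read in WT, so its fitted value is no measure of size.

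Other markers of the NKT1 subset moved with the granule genes. Of 23 such markers outside the members, 17 fell and 0 rose, beside 1.51% and 1.09% of all tested genes. The median log2 fold change of the 23 was -1.58. The 17 include Tbx21, Il12rb2 and Il18rap, which also stand among the factors and receptors above. Examples by smallest p were Ly6c2 (log2 fold change -4.46), Klrc2 (-3.78), Klrd1 (-2.35), Klre1 (-3.87), Klrc1 (-3.07) and Klrk1 (-3.66). The count was 15 without WT replicate 1, 8 without WT replicate 2 and 7 without knockout replicate 1 or 2. The share of all tested genes called lower, given above, also fell in each of these fits. In sorted bulk cells, fewer cells of a subset and less RNA per cell cannot be told apart. Of the NKT17 markers 7 of 12 fell, beside 1.51% of all tested genes. Of the NKT2 markers 4 of 12 rose, and of the stage 0 markers 5 of 10, beside 1.09%. The genes whose profile over the 4 libraries was most like the mean profile of the 9 tested members, out of 8524 at a mean of 10 CPM or more, were Apol7e, Ahnak, Myo1f, Zfyve28 and Gbp3. All but Zfyve28 were called lower; without knockout replicate 1 or 2 none of them passed, and without WT replicate 2 Apol7e and Gbp3 did not. Their root mean square distances to the mean profile were 0.05, 0.06, 0.08, 0.09 and 0.09 on the log2 scale. As that profile is low in the knockout, the choice itself fixed that these genes were lower there. Their calls are therefore no separate result. The members themselves stood 0.17 (Nkg7) to 0.86 (Gzmm) from their own mean. Ahnak, which encodes a giant scaffold protein, was at 274 and 356 CPM in WT and 109 and 111 CPM in the knockout.

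Markers of other cells that can carry granule transcripts were compared in the same libraries. The 10 markers of natural killer cells summed to 682 to 791 CPM in WT and 308 to 340 CPM in the knockout. Of the 8 tested 2 fell, Klrb1c and Fcer1g, beside 1.51% of all tested genes. The median log2 fold change of the 8 was -1.28. Both knockout libraries lay below both WT libraries in 5 (24.9% of all tested genes) and above them in 2 (25.3%). Klrb1c, which NKT1 cells also express, was at 491 and 561.5 CPM in WT and 199 and 193 CPM in the knockout. Cd226 was at 140 and 176 CPM in WT and 87.9 and 125 CPM in the knockout, and Fcer1g at 27.9 and 32.3 against 8.66 and 9.74 CPM. The other 7 were at 10.2 CPM or less in every library, among them Ncr1 at 0 to 2.43 CPM, Tyrobp at 0.0711 to 0.557 CPM and Eomes at 0 in WT and 0.466 and 0.882 CPM in the knockout. The 8 mast cell and basophil markers summed to 10.9 to 17.4 CPM in WT and 3.25 to 13.01 CPM in the knockout, with Fcer1a and Mcpt4 at 0 in all libraries. CD8 T cell markers (2 genes) summed to 150.5 to 219 CPM in WT and 308 to 313 CPM in the knockout, and neither was called. The 11 myeloid markers summed to 151 to 168 CPM in WT and 466 to 517 CPM in the knockout, where Lyz2 and Csf1r rose and Fcer1g fell, and Itgam was at 0 in WT. The 6 markers of plasmacytoid dendritic cells summed to 197 to 199.8 CPM in WT and 157.5 to 184 CPM in the knockout, where Tcf4 rose. The 5 markers of gamma-delta T cells summed to 1224 to 1381 CPM in WT and 1182 to 1219.9 CPM in the knockout, with none called. The part of these cells in the fall of the granule genes was not tested.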

How the data were processed

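RNA-seq counts of 4 libraries, 2 WT and 2 Mettl3 knockout, were analysed. The authors deposited whole-number read counts per gene, unscaled, with 1 column per library and replicates not pooled. HTSeq 0.6.1, STAR 2.6.0a, DESeq2 1.18.1, FastQC 0.11.5 and the mm10 build are named, without their roles, in the submitters' processing notes. Annotation release, strand setting and filters: not given in the sources used here. Smart-seq2, a protocol that keeps no strand, was used per the labels' protocols.

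IDs were matched to GENCODE M21 (GRCm38): 53620 of 53715 without the version and 51464 with it. Coordinates are printed where the version matched. Of IDs sharing a symbol, the one with the highest count was used. In R 4.3.3, genes were filtered with filterByExpr, scaled by TMM and tested with edgeR 4.0.16 (glmQLFit, robust, and glmQLFTest), two-sided, with genotype as the single term over the 4 libraries and adjustment over all tested genes. SE is the log2 fold change over the square root of F. Alternatives were DESeq2 1.42.0, limma 3.58.1 voom, other scalings and filters, a replicate block and leaving out each library. Granzymes were compared by coding sequence, taken as the longest open reading frame of each gene's protein-coding transcripts, in place of the planned protein comparison. Libraries of a genotype differed beyond counting noise (chi-square per degree of freedom 45.6 in WT and 28.7 in the knockout).

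The members, gene lists and naming rule were chosen with earlier results of these data known. The rule named all members, up to 6 called genes of each list by smallest p (or the 3 with the smallest p), called neighbours, and the genes most like the members' mean profile; other genes were named after their values were seen. Marker lists of neutrophils, B cells and CD4+CD8+ thymocytes were also compared, with 0 genes called in each. All 6 thymocyte markers had positive log2 fold changes (median 0.44). They summed to 183 and 215 CPM in WT and 334 and 292 CPM in the knockout. Of 5 tested B cell markers, both knockout libraries lay above both WT libraries in 4 and below in 1. The 6 B cell markers summed to 136 and 174 CPM in WT and 134 and 140 CPM in the knockout.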

Additional observations from a re-analysis of the deposited data

How the results depend on the processing

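Members called lower numbered 4 to 7 under other scalings, filters and tests, where 0.707% to 4.73% of all tested genes were called lower. In 8 of the 9 tested members both knockout libraries lay below both WT libraries. These 8 kept the sign of their log2 fold change in all 12 alternatives. Gzmm, tested in 11 of them, ran from 0.98 without knockout replicate 1 to -0.38 without knockout replicate 2. Of other named genes that were not called, Ctsc ran from -0.072 without WT replicate 1 to 0.23 without WT replicate 2, and Fibp from 0.40 without WT replicate 1 to -0.11 without WT replicate 2. Over all genes, 335 were called higher and 392 lower with at least 5 CPM in 2 libraries, 662 and 671 with DESeq2, and 93 higher with no filter on low counts. Leaving out 1 library gave 13 to 40 genes higher, 26 to 132 lower and 1 to 6 members lower. With the replicate block, 7 of 14185 genes were higher and 26 lower, and 1 member was lower (Nkg7, adjusted p = 0.0448). The labels do not say what the shared numbers mean, and deviations of same-numbered libraries had a correlation of -0.02, so the block is no paired analysis. The cause of these differences was not tested. At this depth Gzmk and Gzmm were too low to compare.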
